A study of Homo sapiens with 3 samples.

Results

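The splicing factors described here are 37 genes of the SR, TRA2, hnRNP, PTBP and U2 families, taken by gene symbol from the 16662 genes of the deposited table. They comprise 11 SR proteins, 2 TRA2 proteins, 7 hnRNPs of the A/B and D groups, 12 other hnRNPs, 2 polypyrimidine tract binding proteins and 3 factors of 3′ splice site recognition. Every member was found once in the table, and all 37 passed a filter of a mean of at least 1 CPM (counts scaled to the library total). RNA was sequenced from H1975, an established EGFR-mutant human lung adenocarcinoma cell line, after transfection with a small interfering RNA (siRNA). There was 1 library with siHHLA3-1, 1 with siHHLA3-3 and 1 with the control siNC. The first pair are differently numbered siRNAs against HHLA3, a gene named for a HERV-H long terminal repeat. All cultures were transfected at about 70% confluency, held 6 h without serum, and kept a further 24 h with 10% serum. The labels also give each library a batch of its own, so siRNA and batch cannot be told apart. With 1 library a siRNA there is no test of one siRNA against another or against siNC, and every interval below is a 95% interval for counting error only.

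SR proteins are RNA-binding proteins with a domain rich in arginine and serine. They bind exonic enhancers, bring U1 and U2 small nuclear ribonucleoproteins (snRNPs) to neighbouring splice sites, and so favour exon inclusion. The hnRNPs coat nascent transcripts and often oppose SR proteins at exonic and intronic silencers, and PTBPs repress exons through pyrimidine-rich tracts. U2AF2 and U2AF1 read the polypyrimidine tract and the AG of the 3′ splice site, and SF3B1 holds the branch point within the U2 snRNP. Many SR and hnRNP genes limit their own mRNA through exons that route it to nonsense-mediated decay. The table holds 1 value per gene, so exon use and isoforms were not measured. In RNA from a whole culture, less mRNA per cell and fewer expressing cells cannot be told apart.

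The library totals were 35069930 reads with siHHLA3-1, 26950852 with siHHLA3-3 and 32813003 with siNC. HHLA3 itself, the targeted gene, had 55, 20 and 192 counts in that order of libraries, or 1.55, 0.735 and 5.99 normalised CPM. The epithelial markers EPCAM, KRT8, KRT18, KRT19, CDH1 and EGFR were all listed, with summed levels of 2804 to 3562 TPM (reads scaled by gene length and library). Of the alveolar markers, SFTPB and SFTPC were not listed, and the 3 others summed to 93.5, 46.9 and 81.6 TPM with siHHLA3-1, siHHLA3-3 and siNC. Of 15 immune, fibroblast and endothelial markers 4 were listed. The fibroblast list summed to 9.70, 4.32 and 4.27 TPM, the endothelial list to 12.8, 2.89 and 5.40 TPM, and the immune list to at most 5.93 TPM. The defining markers PTPRC, CD3E, COL1A2, DCN, PECAM1 and VWF were not listed. COL1A1 and CDH5 lay above siNC with siHHLA3-1, by 1.06 and 1.17 on the log2 scale, and below it with siHHLA3-3, at -0.05 and -1.16. KDR, the other listed endothelial marker, lay above siNC with both siRNAs. The part of other cells in the results below was not tested.

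The sequences that bear on the members are short sites in 3′ untranslated regions (UTRs). An siRNA can lower transcripts other than its target through a match of about 7 bases to its seed, but the sequences of these siRNAs are not given in the sources used here. A scan of 16354 7-base sequences in the annotated 3′ UTRs of 10495 genes picked a sequence for each siRNA. This was the sequence whose carriers had the lowest t statistic, the difference of mean ratios from the other genes over its standard error. The scan picked CAGAATG for siHHLA3-1, carried by 19.5% of the searched genes, and GTGAACT for siHHLA3-3, carried by 13.2%. Both were chosen on these same ratios, so they are a description, and the part of seed matches in the members' values was not tested. Of the 37 members, 6 carried CAGAATG (16.2%): SRSF1, SRSF8, HNRNPA0, HNRNPK, HNRNPU and PTBP3. GTGAACT was carried by 7 members (18.9%): SRSF1, TRA2A, HNRNPA0, HNRNPA1, HNRNPA2B1, HNRNPLL and SF3B1. The sites shown belong to carriers that the results below turn on. They are read from GENCODE release 29 transcripts on GRCh38, which is not the build hg19 of the submitters' processing notes, and capitals mark the 7 bases.
SRSF1, CAGAATG, chr17:58005295-58005321, minus strand: ctgttttgttCAGAATGggctaaagtg
SRSF1, GTGAACT, chr17:58005111-58005137, minus strand: cctggtttgtGTGAACTgggatgttgg
HNRNPK, CAGAATG, chr9:83968955-83968981, minus strand: gagcagtgtgCAGAATGtaatgctctt
PTBP3, CAGAATG, chr9:112220610-112220636, minus strand: gcagctcttaCAGAATGccataaattc
PTBP3, CAGAATG, chr9:112219004-112219030, minus strand: tcagtgtgaaCAGAATGgattaggatg
HNRNPA2B1, GTGAACT, chr7:26190883-26190909, minus strand: aacattttgaGTGAACTaggggttttt
In the transcript searched, the 7 bases begin at base 1461 of the 2433 in the HNRNPA2B1 3′ UTR.

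Most members were abundant mRNAs, as the plot of TPM by library shows. The median member averaged 135 TPM over the libraries, and 30 of the 37 averaged at least 100 CPM. Per length, the highest levels in siNC were those of HNRNPAB (684 TPM), HNRNPA1 (664 TPM) and HNRNPF (644 TPM). HNRNPA1 had rank 3 among the members with siHHLA3-1, rank 5 with siHHLA3-3 and rank 2 with siNC. HNRNPAB held rank 1 or 2 in every library. Among the SR proteins, SRSF2 was the highest in each library, at 176, 204 and 216 TPM with siHHLA3-1, siHHLA3-3 and siNC, and SRSF8, a gene close in sequence to SRSF2, was the lowest, at 20.9, 19.3 and 21.4 TPM. U2AF1 stood apart from all other members, at 2.78, 1.09 and 1.27 TPM, and its case is taken up below. Together the 37 genes made up 1.13% of all reads with siHHLA3-1, 1.26% with siHHLA3-3 and 1.30% with siNC.

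**Figure D1:**
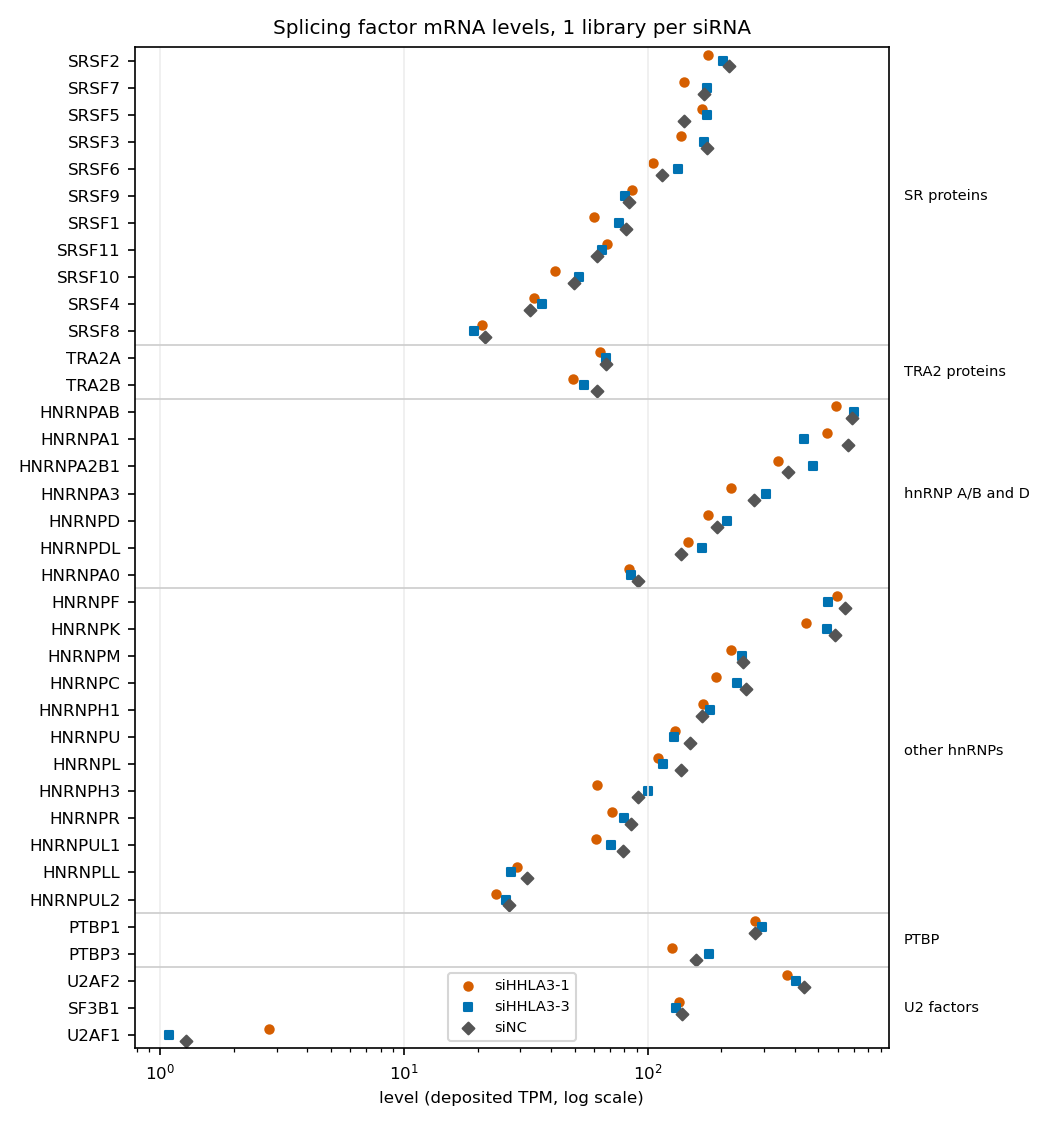
Levels of the 37 splicing factor genes in deposited TPM (log axis), with 1 point per library (siHHLA3-1, siHHLA3-3, siNC) and genes grouped by family and ordered by mean level. HNRNPAB, HNRNPA1 and HNRNPF stand highest, and U2AF1 lies below 3 TPM in every library, far below the other members.

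The comparison of siHHLA3-1 with siNC asks how splicing factor mRNAs stood after this siRNA. Nearly all members were lower. Of the 37 genes 33 had a ratio below 0, against 51.8% of the 13879 genes above the filter and 60.5% of the 2357 genes averaging at least 100 CPM. Ratios are log2 of (normalised CPM + 1) over (normalised CPM + 1). The number below 0 was 29 with the deposited TPM, where 44.4% of all genes were, and 30 with library totals alone, where 45.3% were. SRSF4, SRSF9 and HNRNPH1 turned to above 0 under both, and PTBP1 with TPM only. The members' median ratio was -0.24, and that of all genes -0.01, or -0.07 for the abundant ones. Genes were counted by size, with a limit of 0.32 on the log2 scale in either direction. Past this size limit, 13 members were lower (13.5% of all genes, 15.9% of the abundant ones) and 1 was higher (15.0% of all genes, 11.2% of the abundant ones). With the deposited TPM those numbers were 7 and 1, and the shares of all genes 10.1% lower and 18.6% higher. With library totals 9 members were lower and 1 was higher, and the shares were 10.4% and 18.0%. On the same scale, 0 members were 2-fold apart, where 1.35% of all and 1.10% of abundant genes were. Without the added 1 CPM, U2AF1 had a fold of 2.11 (1.71 to 2.60). Summed over the members, CPM was 0.839 times that of siNC (0.835 to 0.843).

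Among the SR proteins, 4 of 11 were lower past the size limit with siHHLA3-1, 9 were below 0 and the median was -0.18. SRSF1, the prototype SR protein and a known oncogene product, stood at 97.1 CPM with siHHLA3-1, 122 CPM with siHHLA3-3 and 138 CPM with siNC. SRSF3, the smallest SR protein and a regulator of mRNA export as well as splicing, stood at 274, 338 and 362 CPM in the same order. In both genes the siHHLA3-1 library was the lowest and siHHLA3-3 lay nearer to siNC. The ratio with siHHLA3-1 was -0.50 for SRSF1, a fold of 0.705 (0.674 to 0.738), and -0.40 for SRSF3. SRSF2, an enhancer-binding factor often mutated in myeloid disease, had 147, 170 and 188 CPM and a ratio of -0.35. SRSF7, a relative of SRSF3 with a zinc knuckle, had 159, 197 and 201 CPM and a ratio of -0.33. SRSF2 and SRSF7 passed the limit by little, and did not pass it with library totals, TPM or FPKM. SRSF10, an SR protein that becomes a repressor when dephosphorylated, was just short of the limit at -0.31. The others were SRSF6 at -0.18, SRSF8 at -0.09 and SRSF4 and SRSF9 at -0.01 each. SRSF5 stood on the other side, at 251, 262 and 221 CPM, with ratios of 0.18 and 0.24. It was the SR protein furthest above siNC with each siRNA, and its level per length relative to that of SRSF3 was 1.22, 1.03 and 0.812 in siHHLA3-1, siHHLA3-3 and siNC. That pair was chosen after its values were seen, as were the other pairs of levels below.

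SRSF11, an SR-related protein first described as p54, lies on chromosome 1 in the neighbourhood of HHLA3. In GENCODE release 29 on GRCh38 it spans 70205682 to 70253052 on the plus strand, and 101752 bases separate its end from the start of HHLA3. It had 5737 counts with siHHLA3-1, 4177 with siHHLA3-3 and 4909 with siNC, or 162, 153 and 153 CPM. The libraries were close: the folds to siNC were 1.06 (1.02 to 1.10) and 1.00 (0.962 to 1.04). HHLA3 was at 0.259-fold and 0.123-fold of siNC in the same libraries.

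The TRA2 proteins bind GA-rich exonic enhancers. TRA2B had 180 CPM with siHHLA3-1, 201 CPM with siHHLA3-3 and 236 CPM with siNC, and its ratios were -0.39, which did not pass the limit with FPKM, and -0.24. TRA2A had 62.5, 66.1 and 69.3 CPM and ratios of -0.15 and -0.07. Both genes were lowest with siHHLA3-1, and TRA2B was further from siNC than its paralog with each siRNA.

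The hnRNPs of the A/B and D groups bind splicing silencers and, for the D group, AU-rich elements of labile mRNAs. With siHHLA3-1, 6 of the 7 were below 0 and 2 were past the size limit. HNRNPA1, the best-known exon repressor of the group, had 36176 counts with siHHLA3-1, 22362 with siHHLA3-3 and 41693 with siNC, or 1019, 821 and 1300 CPM. HNRNPA3 stood at 412, 567 and 532 CPM. HNRNPA1 was thus below siNC in both libraries, and HNRNPA3 in one. Their ratios with siHHLA3-1 were -0.35 and -0.37, which did not pass the limit with library totals, TPM or FPKM. HNRNPAB, also known as CArG-box binding factor A, had a ratio of -0.28, HNRNPA2B1 of -0.20, HNRNPA0 of -0.18 and HNRNPD (AUF1) of -0.17, while HNRNPDL was at 0.02.

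All 12 other hnRNPs were below 0 with siHHLA3-1, or 11 with the deposited TPM, the deposited FPKM or library totals, where HNRNPH1 turned. Their median was -0.29, and 5 were past the size limit, or 4 with TPM, where HNRNPL was not. HNRNPH3, a small member of the H/F group that binds G-rich runs, had 3321 counts with siHHLA3-1, 4111 with siHHLA3-3 and 4600 with siNC, or 93.5, 151 and 143 CPM. It was the member furthest below siNC in this library, at a ratio of -0.61 and a fold of 0.652 (0.624 to 0.682). It lies on chromosome 10 (68331174 to 68343191, plus strand, GRCh38). HNRNPC, which binds uridine tracts and shields cryptic exons, stood at 390, 476 and 540 CPM. HNRNPK, which binds cytosine-rich sequence, stood at 637, 771 and 874 CPM. Both had the order siHHLA3-1, siHHLA3-3, siNC from low to high. Their ratios with siHHLA3-1 were -0.47 and -0.46, beside -0.42 for HNRNPUL1 and -0.38 for HNRNPL, a binder of CA repeats. HNRNPUL1 stood at 115, 132 and 154 CPM and HNRNPL at 200, 210 and 260 CPM. The remaining 7 lay between -0.31 (HNRNPR) and -0.05 (HNRNPH1), among them HNRNPF, the highest per length, at 547, 500 and 617 CPM, and HNRNPU, a nuclear matrix protein, at 818, 809 and 977 CPM.

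PTBP3, a paralog of the exon repressor PTBP1 known from blood cell differentiation, had 291 CPM with siHHLA3-1, 412 CPM with siHHLA3-3 and 377 CPM with siNC. PTBP1 had 578, 617 and 602 CPM. PTBP3 was below siNC in one library and above it in the other, and PTBP1 lay close to it in both. The ratios with siHHLA3-1 were -0.38 for PTBP3, which did not pass the limit with TPM or FPKM, and -0.06 for PTBP1. Per length, PTBP1 was 2.18 times PTBP3 with siHHLA3-1, 1.64 times with siHHLA3-3 and 1.75 times with siNC. Of the 3′ splice site factors, U2AF2 stood at 430, 467 and 526 CPM, with ratios of -0.29 and -0.17. SF3B1 stood at 394, 379 and 418 CPM, with ratios of -0.09 and -0.14. Both were below siNC in each library, short of the size limit.

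**Figure D2:**
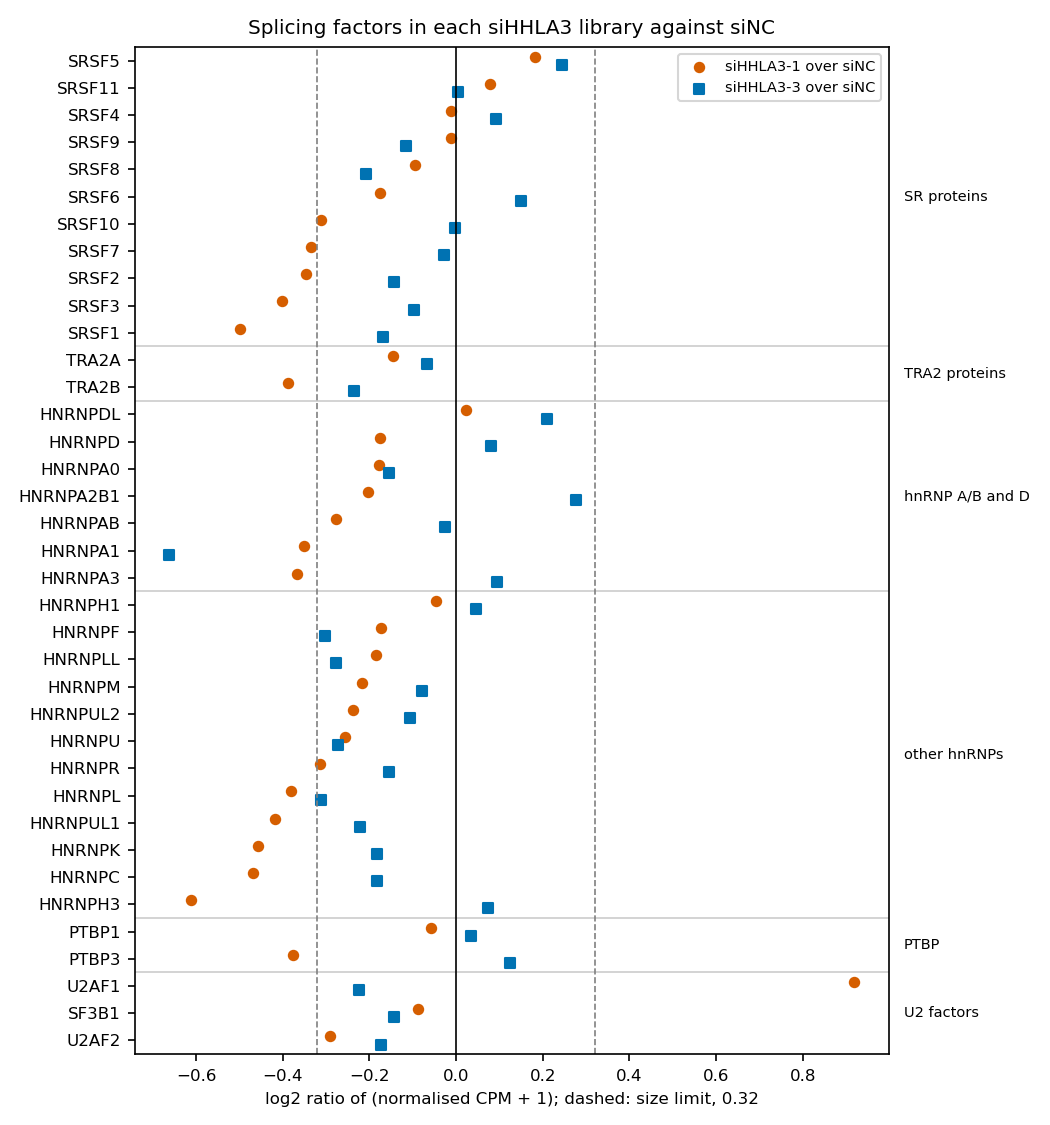
Log2 ratios of (normalised CPM + 1) of each splicing factor gene in the siHHLA3-1 and siHHLA3-3 libraries over the siNC library, by family, with dashed lines at the size limit of 0.32. With siHHLA3-1 33 genes lie below 0 and 13 beyond the lower line, and with siHHLA3-3 HNRNPA1 alone lies beyond it.

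With siHHLA3-3 all members but HNRNPA1 lay within the size limit of siNC. Past the size limit 1 member, HNRNPA1, was lower (15.1% of all genes, 12.0% of the abundant ones) and 0 were higher (12.7% of all genes, 9.29% of the abundant ones). With the deposited TPM the shares of all genes were 12.0% lower and 17.2% higher, or 12.7% and 15.9% with library totals, and under both HNRNPA2B1 was also counted as higher. Below 0 were 25 members, against 51.5% of all and 54.8% of abundant genes. With TPM the number was 22, against 42.5% of all genes, and SRSF7, SRSF10 and HNRNPAB turned. The members' median was -0.11, against -0.01 for all genes. At 2-fold, 0 members differed (2.28% of all and 1.91% of abundant genes). The members' summed CPM was 0.941 times that of siNC (0.937 to 0.946). HNRNPA1, on chromosome 12 (54280193 to 54287088, plus strand, GRCh38), had a ratio of -0.66, a fold of 0.632 (0.622 to 0.642). It was also the 1 member lower past the limit with both siRNAs, where 3.89% of all and 3.14% of abundant genes were. Higher with both were 0 members, where 5.31% of all and 4.29% of abundant genes were. HNRNPA1 no longer passed the limit with siHHLA3-1 under library totals (-0.30), TPM (-0.29) or FPKM (-0.30). Both comparisons share the siNC library. When both siHHLA3 libraries were taken as 2 samples against siNC, which assumes that the lone siNC library varies like them, 0 members passed an adjusted p of 0.05 by edgeR or by DESeq2, which called 0% and 0.0360% of all genes. Nor did any member have an unadjusted p under 0.05 by either tool.

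HNRNPA2B1, a paralog of HNRNPA1 that reads similar purine-rich sequence and also carries GTGAACT, was on the other side of siNC with siHHLA3-3. It stood at 1204 CPM with siHHLA3-1, 1679 CPM with siHHLA3-3 and 1385 CPM with siNC, and its ratio with siHHLA3-3 was 0.28. Per length, HNRNPA1 was 1.59 times HNRNPA2B1 with siHHLA3-1, 0.921 times with siHHLA3-3 and 1.77 times with siNC. The order of this pair per length was thus reversed in the siHHLA3-3 library. In CPM it was not, since HNRNPA1, at 1019, 821 and 1300 CPM, was below HNRNPA2B1 in every library. The 7 members with GTGAACT had a median ratio of -0.15 with siHHLA3-3, and the other 30 a median of -0.09, with HNRNPA1 at one end of the carriers and HNRNPA2B1 at the other. The 6 members with CAGAATG had a median of -0.32 with siHHLA3-1 and the other 31 a median of -0.22. Of the 13 members lower with siHHLA3-1, SRSF1, HNRNPK and PTBP3 carried CAGAATG and 10 did not, HNRNPH3 and HNRNPC included. Over all searched genes the medians were -0.09 with and -0.02 without CAGAATG, and -0.20 with and 0.00 without GTGAACT.

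By family, the SR proteins with siHHLA3-3 were near siNC, with 7 of 11 below 0 and a median of -0.03. That median was 0.04 with TPM and 0.02 with FPKM or library totals. The median of all genes was -0.01, or 0.05 with TPM and 0.03 with FPKM or library totals. SRSF5 (0.24) and SRSF6 (0.15) were furthest above, and SRSF8 (-0.21) and SRSF1 (-0.17) furthest below. The 7 hnRNPs of the A/B and D groups had a median of 0.08, with HNRNPDL, which binds AU-rich RNA, at 0.21 and 257 CPM against 222 CPM in siNC. The 12 other hnRNPs had a median of -0.18 and 10 below 0. HNRNPL at -0.31 and HNRNPF at -0.30 were just short of the size limit, and HNRNPLL, an hnRNP L paralog known from lymphocytes, was at -0.28. Both PTBP genes were above 0 and all 3 splice site factors below it.

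The direct comparison of siHHLA3-3 with siHHLA3-1 does not use siNC. Of the 37 members 28 were higher with siHHLA3-3 and 9 lower, while 49.6% of all and 44.2% of abundant genes were lower. Past the size limit, 6 were higher (14.9% of all genes, 15.0% of the abundant ones) and 1 was lower (18.3% of all genes, 13.9% of the abundant ones). The 6 were HNRNPH3, PTBP3, HNRNPA2B1, HNRNPA3, SRSF1 and SRSF6. HNRNPH3 had a fold of 1.61 (1.54 to 1.69), PTBP3 of 1.42 (1.38 to 1.46), HNRNPA2B1 of 1.39 (1.38 to 1.41) and HNRNPA3 of 1.38 (1.35 to 1.41). SRSF1 and SRSF6 had folds of 1.26 each, and both were inside the limit with the deposited FPKM. HNRNPA1 was the 1 member of the A/B and D groups that was lower, at a fold of 0.806 (0.793 to 0.820). The median ratio was 0.14 for the members and 0.00 for all genes. The 1 member lower past the limit was U2AF1, which was also the only member 2-fold apart (2.87% of all and 1.78% of abundant genes). With TPM or FPKM, each with 1 added, it was under 2-fold. U2AF1 stood at only 2.78 TPM with siHHLA3-1 and 1.09 TPM with siHHLA3-3, so the added 1 weighs on that ratio.

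**Figure D3:**
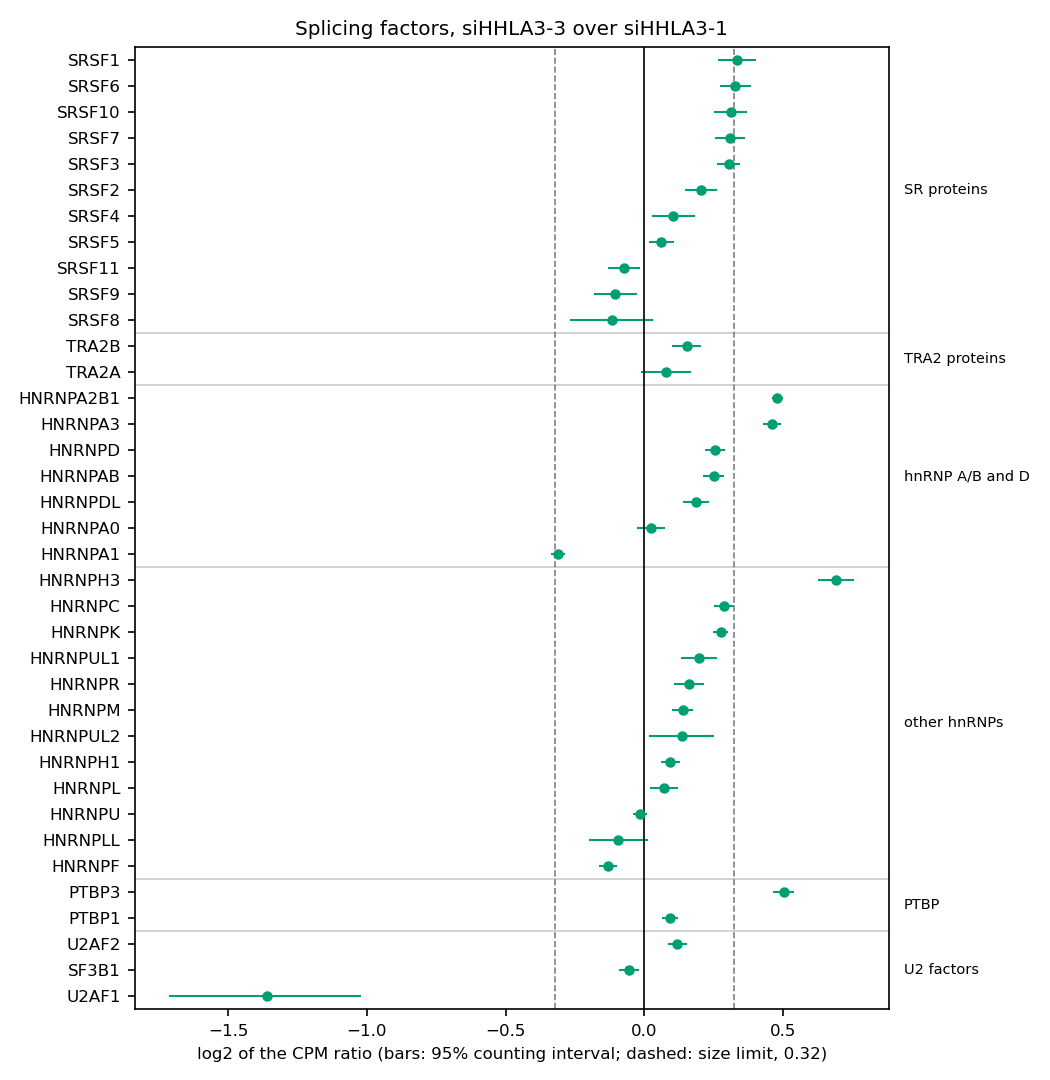
Log2 of the CPM ratio of siHHLA3-3 over siHHLA3-1 for each splicing factor gene, by family, with 95% binomial counting intervals as bars and dashed lines at 0.32. HNRNPH3, PTBP3, HNRNPA2B1 and HNRNPA3 lie furthest to the right, HNRNPA1 lies left of 0, and U2AF1 is far to the left with a wide interval.

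U2AF1 cannot be read on its own. It is annotated on chromosome 21 from 43092956 to 43107587 and its near-identical copy U2AF1L5 from 6484623 to 6499261 (both minus strand, GRCh38), and the table lists both. U2AF1 had 308 counts with siHHLA3-1, 92 with siHHLA3-3 and 132 with siNC, or 8.67, 3.38 and 4.11 CPM. U2AF1L5 had 18.9, 5.18 and 4.33 CPM. Summed over both, the counts were 978, 233 and 271. Both genes, and their sum, were highest with siHHLA3-1, and U2AF1L5 held 68.5%, 60.5% and 51.3% of the sum. The sum was 3.26 times that of siNC with siHHLA3-1 (2.85 to 3.74) and 1.01 times with siHHLA3-3 (0.847 to 1.21). Its partner U2AF2, with which U2AF1 forms a heterodimer, had 430 to 526 CPM, so the reads assigned to U2AF1 and its copy were a small fraction of those of U2AF2. The treatment of reads that match both copies is not given in the sources used here. Levels and differences of U2AF1 are therefore uncertain.

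**Figure D4:**
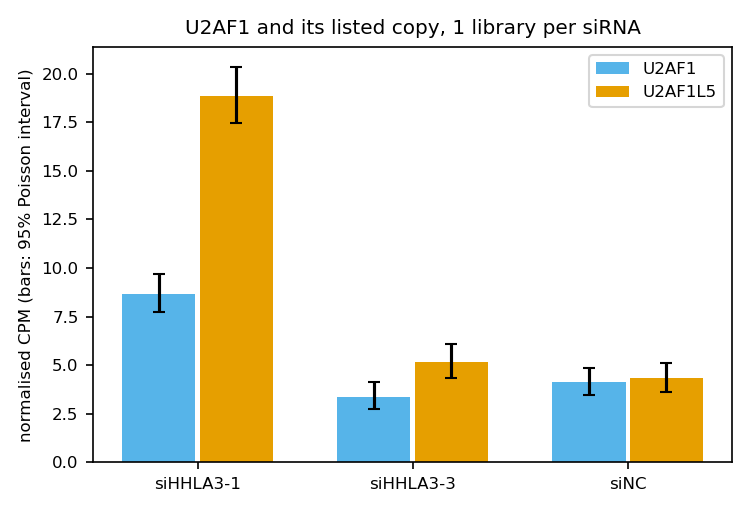
Normalised CPM of U2AF1 and of its near-identical copy U2AF1L5 in the siHHLA3-1, siHHLA3-3 and siNC libraries, with 95% Poisson intervals. Both bars are highest with siHHLA3-1 (8.67 and 18.9 CPM), and neither exceeds 5.18 CPM in the other libraries.

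Copies of other members, taken by symbol and not by gene type, were listed too. The 8 listed HNRNPA1 copies summed to 1176, 667 and 1318 counts with siHHLA3-1, siHHLA3-3 and siNC. These were 3.15%, 2.90% and 3.06% of the reads of HNRNPA1 and copies together. Their fold to siNC with siHHLA3-3 was 0.596 (0.542 to 0.655), and HNRNPA1 with its copies was at 0.631 (0.621 to 0.641), close to 0.632 for HNRNPA1 alone. The HNRNPA3 and HNRNPK copies held at most 2.31% and 2.11% of their sums. HNRNPH3 overlaps PBLD and RUFY2 on the opposite strand, and HNRNPA2B1 overlaps NFE2L3 and CBX3. SRSF2 likewise overlaps MFSD11, SRSF9 overlaps GATC, HNRNPAB overlaps PHYKPL and HNRNPUL1 overlaps TGFB1. Whether the counting used strand is not given in the sources used here. Reads in these overlaps therefore cannot be told apart. Of these neighbours only NFE2L3 is given by value, at 43.5, 66.0 and 39.2 CPM, beside 1204 to 1679 CPM for HNRNPA2B1. The part of overlapping reads in the members' values was not tested.

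The members were set beside 8 lists of other splicing genes. With siHHLA3-1, 51.8% of all genes were below 0, and past the size limit 13.5% were lower and 15.0% higher. With siHHLA3-3 those shares were 51.5%, 15.1% and 12.7%. The counts of each list below stand beside these shares, and several are near them. Of 10 SR protein kinases and import factors, 0 were lower and 1 was higher past the size limit with siHHLA3-1, and the median was 0.05. With siHHLA3-3, 1 was lower and 1 higher. SRPK3 had a ratio of 0.60 with siHHLA3-1 and 0.27 with siHHLA3-3, and the nuclear kinase CLK3 of 0.06 and 0.36. TNPO3, the transportin that carries SR proteins into the nucleus, stood at 168 CPM with siHHLA3-1, 105 CPM with siHHLA3-3 and 193 CPM with siNC. Its ratio with siHHLA3-3 was -0.88, and its 3′ UTR carries GTGAACT.

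The lists that follow cover the core of the spliceosome, and their counts stand beside the same shares of all genes. The 20 Sm, LSm and snRNP core genes had medians of -0.25 and 0.00 with siHHLA3-1 and siHHLA3-3, with 18 and 10 below 0, and past the size limit 2 were lower and 0 higher with each. SNRPB2, the U2 snRNP protein B'', stood at 82.8 CPM with siHHLA3-1, 26.5 CPM with siHHLA3-3 and 90.5 CPM with siNC, a ratio of -1.74 with siHHLA3-3; its 3′ UTR carries GTGAACT. LSM2 had ratios of -0.40 and -0.33. The 18 listed genes of the U2 snRNP and branch point had medians of -0.17 and 0.05. Past the size limit 3 were lower and 3 higher with siHHLA3-1, and 0 were lower and 3 higher with siHHLA3-3. Among the 3 higher with siHHLA3-1 was U2AF1L5, at 1.90, the copy of U2AF1 taken up above. SF3A2, a core U2 subunit, was at 0.34 and 0.39, ZRSR2, the minor spliceosome relative of U2AF1, at 0.36 and 0.51, and PUF60, which acts beside U2AF2, at -0.35 and -0.22. The 20 tri-snRNP and PRP19 complex genes had medians of -0.18 and 0.00, with 2 lower with siHHLA3-1, 1 lower with siHHLA3-3 and 0 higher with either. PRPF8, the scaffold of the catalytic core, stood at 541, 663 and 701 CPM, a ratio of -0.38 with siHHLA3-1.

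Of 19 other hnRNPs and hnRNP-like RNA-binding proteins, 16 were below 0 with siHHLA3-1 (51.8% of all genes) and 14 with siHHLA3-3 (51.5%). The medians were -0.20 and -0.13. Past the size limit 4 were lower and 0 higher with siHHLA3-1, and 1 was lower and 0 higher with siHHLA3-3. The stabilising factor ELAVL1 (HuR), which carries CAGAATG but not GTGAACT, had ratios of -0.30 and -0.45. The helicase DHX9 was at -0.45 and -0.20. The cold-inducible RBM3 was at -0.35 and -0.22, while its relative CIRBP was at 0.19 and 0.30. The 17 listed SR-related proteins had medians of -0.02 and 0.05, with 0 past the limit with siHHLA3-1 and 1 higher, RNPS1 at 0.35, with siHHLA3-3. The 15 genes of the exon junction complex and nonsense-mediated decay had medians of 0.00 and 0.07, with 0 past the limit with siHHLA3-1. With siHHLA3-3 the decay factor UPF3B was at 0.57 and SMG5 at -0.33. Of 14 listed tissue-regulated factors, 0 were lower and 1 higher with siHHLA3-1, and 3 were lower and 3 higher with siHHLA3-3. The epithelial RNA-binding protein RBM47 stood at 97.8 CPM with siHHLA3-1, 41.4 CPM with siHHLA3-3 and 119 CPM with siNC, a ratio of -1.50 with siHHLA3-3, and it carries GTGAACT. ESRP1, the epithelial splicing regulator, does not carry GTGAACT and was at -0.52 with siHHLA3-3. QKI, which carries GTGAACT, was at 0.40 with siHHLA3-3. Over all 8 lists 21 of 132 searched genes carried GTGAACT, with 12 below 0, 9 above 0 and a median of -0.08 with siHHLA3-3, against a median of 0.02 for the 111 others. Past the size limit 3 of the carriers were lower and 1 was higher, and of the 111 others 6 were lower and 8 higher. Over all genes 15.1% were lower and 12.7% higher past that limit with siHHLA3-3. The part of GTGAACT in these ratios was not tested. CAGAATG was also carried by 21 of the 132, whose median with siHHLA3-1 was -0.01, against -0.12 for the 111 others.

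**Figure D5:**
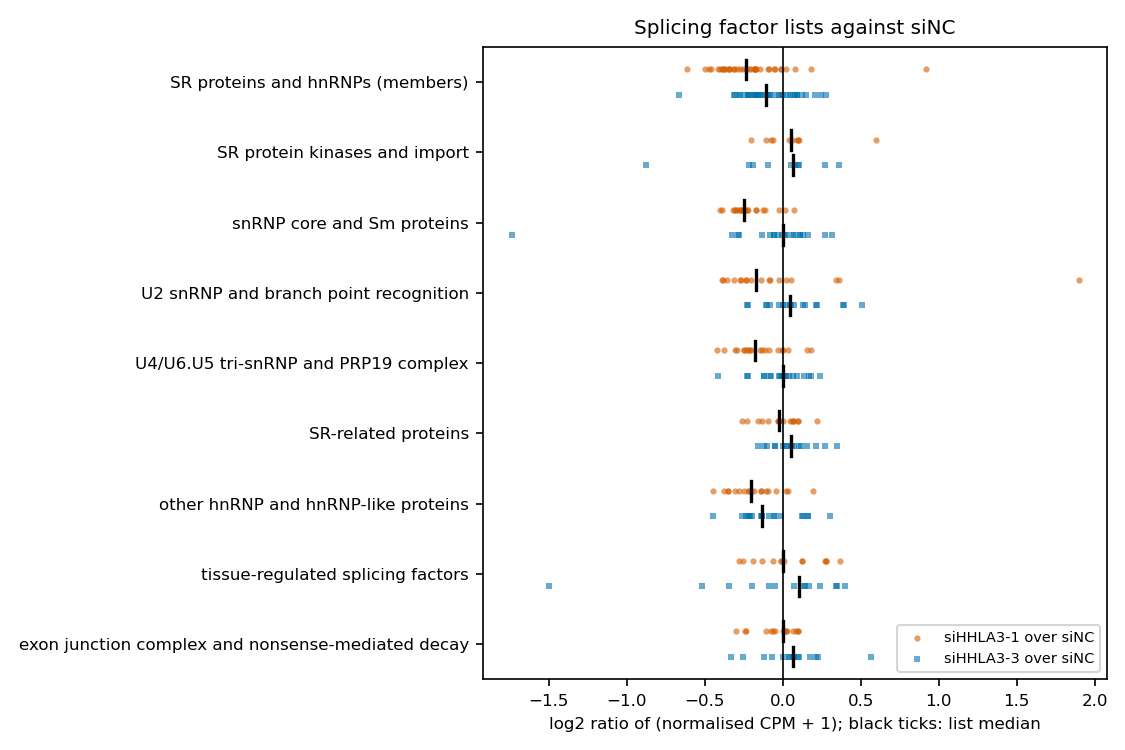
Log2 ratios of (normalised CPM + 1) over siNC for the 37 members and 8 lists of other splicing genes, with 1 point per gene above the filter and black ticks at list medians. The members' medians lie at -0.24 with siHHLA3-1 and -0.11 with siHHLA3-3, and the low outlying points with siHHLA3-3 are SNRPB2 and RBM47.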

How the data were processed

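Total RNA from 3 H1975 cultures was sequenced, 1 library each for siHHLA3-1, siHHLA3-3 and siNC. Per the labels' protocols, 1 ug of RNA per sample was used after Trizol extraction and DNase I treatment. The authors deposited whole-number counts per gene with CPM, FPKM and TPM; the headers name these units. The deposited CPM are counts over the library total, and the deposited FPKM and TPM are scaled by gene length. The submitters' processing notes name hg19, HISAT2, HISAT, TopHat2 and Bowtie2, while the counter, annotation and strand setting are not given in the sources used here.

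Counts were scaled by TMM (edgeR 4.0.16, R 4.3.3; factors 1.01, 1.01 and 0.978 for siHHLA3-1, siHHLA3-3 and siNC). Ratios are log2 with 1 CPM added, and folds are CPM ratios without it. Genes were counted past 0.32 on the log2 scale or at 2-fold, among the 13879 genes averaging at least 1 CPM. Levels have exact Poisson and folds exact binomial 95% intervals, which cover counting error only. The floor of 3 counts is 0.0845, 0.110 and 0.0935 CPM in that order. Alternatives were DESeq2 1.42.0 size factors, library totals, deposited TPM and FPKM, 0.1 CPM as the added value, a filter of 5 CPM or none at all, and edgeR or DESeq2 with both siHHLA3 libraries as 2 samples against 1. The size calls with both siRNAs and the edgeR fit were tried on counts simulated with counting error only, without variation between cultures. The steps were run with pandas 2.3.3, scipy 1.17.1 and numpy 2.4.6 under Python 3.11.15. The 3′ UTRs of protein-coding transcripts in GENCODE release 29 were searched for genes of at least 5 CPM, and 7-base sequences in at least 30 genes were compared. The sequence of 1 site is not reported here.

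Members, gene lists and rules were chosen with earlier results of these data known. Named are members past 0.32 in any comparison, the 3 most abundant of each family, SRSF11, U2AF1, and up to 3 genes in each direction per list; other members are given by value where they complete a family.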

Additional observations from a re-analysis of the deposited data

How the results depend on the processing

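No paired analysis was possible because each group held 1 library. With the deposited TPM or the deposited FPKM, 7 members rather than 13 were lower past the size limit with siHHLA3-1, and with siHHLA3-3 1 member, HNRNPA2B1, was higher under TPM, FPKM and library totals alone. The number of members called with both siRNAs was 0 under those settings. Between the siRNAs, 0 members were 2-fold apart with TPM and with FPKM, each with 1 added. A pseudocount of 0.1 CPM put 1 member, U2AF1, past 2-fold with siHHLA3-1. SRSF1, SRSF3, HNRNPC, HNRNPH3, HNRNPK and HNRNPUL1 were lower with siHHLA3-1 under the 7 alternatives that rescale or refilter, and HNRNPA1 with siHHLA3-3 likewise. Of the single-gene values under these alternatives, 627 moved by less than counting error and 150 by more. The moves by more were 39 with library totals, 62 with TPM and 49 with FPKM. The all-gene median under those settings was 0.03 to 0.04 with siHHLA3-1 and 0.03 to 0.05 with siHHLA3-3. As reported, that median was -0.01 with each. The 627 include 111 with no filter and 111 with the 5 CPM filter, which leave a gene's ratio unchanged. The cause of the moves was not tested. Taking both siHHLA3 libraries as 2 samples against siNC, with 1 residual degree of freedom and siNC assumed to vary like them, called 0 members by edgeR's quasi-likelihood test and 0 by DESeq2 at an adjusted p under 0.05. At an unadjusted p under 0.05 each tool also had 0 members, and over all genes edgeR had 341 and DESeq2 231. The smallest member p was 0.0695, for HNRNPA1 (edgeR, log2 fold change -0.49, lower in both libraries). The background of genes averaging at least 100 CPM was added after the data were seen, as were the alternatives for the count of members with both siRNAs. Depth limits U2AF1 most, at 92 to 308 counts.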
